A study of Mus musculus with 90 samples.

Results

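Livers of mice given an AAV8 vector with an shRNA against Prkar1a, together with a control antibody (Prkar1a KD + Control mAb), were compared with livers of mice given a control vector and the same control antibody (Control AAV + Control mAb). The rule took every library that its label places in either of these groups of the second experiment, which gave 10 and 10 of the 90 liver libraries in the series. The second experiment holds 2 more groups of 10, Prkar1a KD + Gcgr mAb and Control AAV + Gcgr mAb, in which the antibody is directed at the glucagon receptor. From the first experiment, 10 PKA KD and 10 Control libraries are used below. Every mouse of the second experiment received a vector and an antibody, so the control libraries are not from untreated animals. The knockdown rests on viral delivery of hairpins, and the share of liver cells that took up the vector is not given in the sources used here. Strain, sex, age, doses, the interval to tissue collection, the feeding state and the hairpin sequences are not given there either. The labels number the libraries within a group without saying that each is a separate animal, so the p-values measure the spread between libraries.

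Protein kinase A (PKA) is held inactive as a complex of regulatory and catalytic subunits. When glucagon binds its receptor on hepatocytes, the stimulatory G protein turns on adenylyl cyclase, and cyclic AMP (cAMP) binds the regulatory subunits, which release the catalytic ones. Prkar1a encodes the type I alpha regulatory subunit, and its loss is known to leave the kinase more active at a given level of cAMP. In liver the kinase is known for switching on glucose production and amino acid breakdown through CREB and its coactivators, and for restraining glycolysis and fat synthesis.

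Total counts per library, in units of 1e6, ran from 12.4 to 18.1 in the knockdown (median 16.6) and from 11.6 to 19.3 in the controls (median 16.5). Levels are given as CPM, the counts of a gene per 1e6 counts of its library, after scaling by trimmed mean of M values, and changes as log2 fold changes with their standard error (SE) from a fit of 12847 genes over all 40 libraries of the experiment. A gene is said to have risen or fallen where the adjusted p was under 0.05. On the first principal component, which held 45.9% of the variance, knockdown libraries lay between 37.4 and 48.42 and the controls between -40.37 and -30.86. Control replicates 2 and 10 lay apart from the other 8 controls on the third component. Without them 3668 genes rose and 3295 fell, beside 3761 and 3462 with all libraries, and the amino acid, sterol and interferon lists below had 27 of 58 members up, 26 of 26 down and 32 of 35 up. The hepatocyte markers were present at high levels in every library, but their summed level had a median of 91900 CPM in the controls (range 86000 to 99300) and of 39200 CPM in the knockdown (34900 to 50000). Albumin RNA alone made up a median of 5.43% of all counts in the controls and 2.09% in the knockdown, and this change in a very abundant RNA stands beside every CPM value below. Counts from bulk tissue cannot tell fewer cells of a type from less RNA per cell.

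Prkar1a RNA (chr11:109649023-109669663, GRCm38.p6) was low in every knockdown library. It ran from 97.7 to 135 CPM in the controls, with a median of 122, and from 28.6 to 35 CPM in the knockdown, with a median of 32.8. The 2 groups lay far apart, and the change of -1.94 ± 0.058 on the log2 scale had the smallest p of all genes (adjusted p = 3.1e-27), which checks the labels. The remaining RNA was 0.26 of the control level.

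The response reached over much of the transcriptome. Of the 12847 genes tested, 56.2% passed the test: 3761 rose (29.3%) and 3462 fell (26.9%). At a change of at least 2-fold, 500 rose and 733 fell. The 20 libraries did not overlap for 15.1% of genes, with every knockdown library above every control for 1002 genes (7.8%) and below for 934 (7.27%). Against this background, a list with close to 3 in 10 members up and as many down does not stand apart from all genes.

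Among the other PKA genes, the regulatory subunit Prkar2a (type II alpha) also fell. It ran from 47.5 to 87.6 CPM in the controls (median 76.5) and from 33 to 41.2 CPM in the knockdown (median 37.5), without overlap, a change of -0.97 ± 0.1 (adjusted p = 1.3e-10). The catalytic subunits moved little: Prkacb rose by 0.24 ± 0.07 on the log2 scale and Prkaca was at -0.11 ± 0.074 (adjusted p = 0.217), with medians of 66.4 CPM in the controls and 66 CPM in the knockdown. Of the 8 subunits and inhibitors tested, 1 rose and 3 fell, the third being the PKA inhibitor Pkig (-0.35 ± 0.11). The regulatory subunits Prkar1b and Prkar2b were near the limit of detection, with control medians of 0.246 and 0.54 CPM, and Prkar1b was too low to be tested. The inhibitors Pkia and Pkib, with control medians of 1.27 and 0.822 CPM, did not pass the test.

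The A-kinase anchoring proteins hold the kinase at particular sites in the cell. Of 12 tested, 6 rose and 2 fell. Akap5 rose by 1.15 ± 0.21, Akap10 by 0.61 ± 0.093 and Akap13 by 0.54 ± 0.078 on the log2 scale, while Akap7 fell by 0.51. The fall of Akap1, a mitochondrial anchor, was small (-0.17 ± 0.066, adjusted p = 0.0272) and did not pass without control replicate 3 (-0.15, adjusted p = 0.0517) or replicate 6 (-0.15, adjusted p = 0.0609).

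Upstream of the kinase, several genes of glucagon signalling were lower. The glucagon receptor gene Gcgr ran from 145 to 192 CPM in the controls (median 159) and from 108 to 139 CPM in the knockdown (median 126), a change of -0.39 ± 0.066 without overlap. Gnas, the stimulatory G protein alpha subunit, fell by 0.35 on the log2 scale, and the adenylyl cyclase Adcy6 by 0.63. The inhibitory subunits went both ways, with Gnai1 at -1.97 ± 0.24 and Gnai3 at 0.7 ± 0.08. Of 14 such genes tested, 3 rose and 6 fell. The other rises were the cyclase Adcy1 (2.53 ± 0.39, at 0.214 CPM in the median control) and Rapgef4, which encodes Epac2, a cAMP sensor separate from PKA. Rapgef4 went from a median of 78.8 CPM to 136 CPM (0.9 ± 0.11), with all knockdown libraries above all controls.

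Phosphodiesterases break cAMP down, and 6 of the 14 tested rose while 2 fell. Pde10a changed most: it ran from 0.178 to 1.2 CPM in the controls (median 0.332) and from 4.54 to 12.2 CPM in the knockdown (median 7.85), a change of 4.26 ± 0.3 (adjusted p = 4.54e-15). Pde4b rose from a median of 20.3 CPM to 42.5 CPM (1.0 ± 0.13) and Pde3b, the form known to be acted on by insulin, from 83.3 to 134 CPM (0.75 ± 0.1). Both were without overlap. Pde7b rose by 1.08 ± 0.15 with some overlap, and the calcium-dependent Pde1a fell by 0.48 on the log2 scale.

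Regulators of CREB-driven transcription rose at several steps. Of 12 regulators tested, 8 rose and 2 fell. Sik1 encodes a kinase that restrains the CREB coactivators and is itself a CREB target. It ran from 5.02 to 15.6 CPM in the controls (median 8.34) and from 59.9 to 108 CPM in the knockdown (median 81.1), a change of 3.26 ± 0.2 (adjusted p = 9.17e-17). Crem, whose ICER forms are known to repress cAMP-responsive genes, rose by 1.33 ± 0.12. Creb1 itself and the coactivator gene Crtc2 each rose by 0.61 on the log2 scale, without overlap between the groups.

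**Figure D1:**
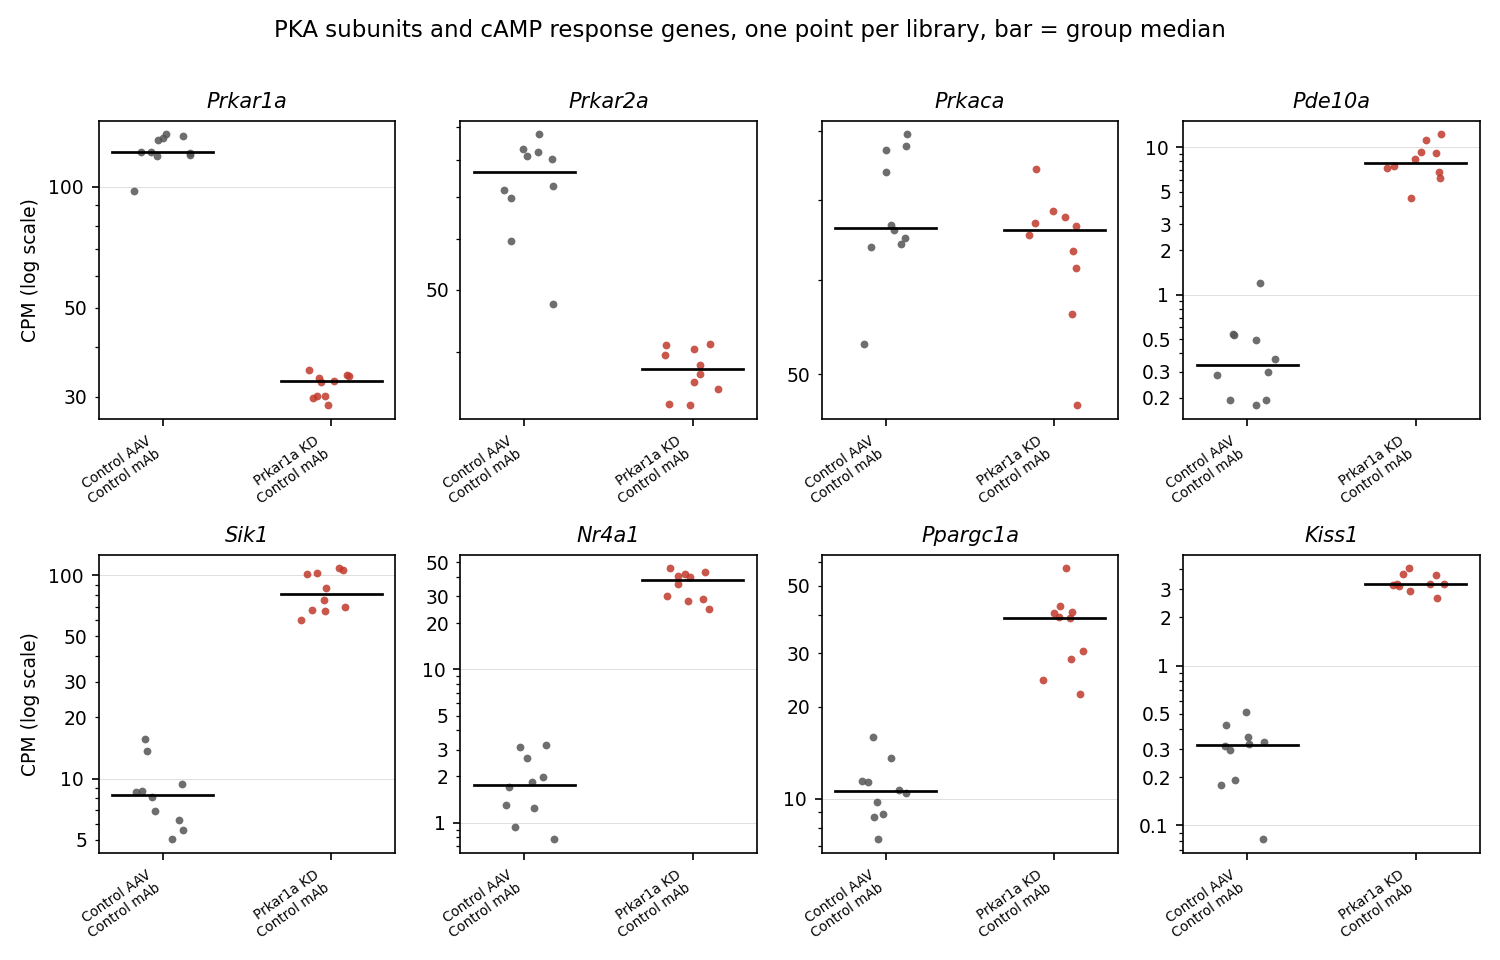
CPM on a log axis in each library of Control AAV + Control mAb (grey) and Prkar1a KD + Control mAb (red), 10 per group, with the group median as a bar. Prkar1a and Prkar2a are lower in every knockdown library, Prkaca overlaps, and Pde10a, Sik1, Nr4a1, Ppargc1a and Kiss1 are higher in every knockdown library.

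Some immediate targets of CREB were among the strongest rises. Of 24 acute cAMP response genes tested, 12 rose, 2 fell and 10 did not pass, with a median log2 change of 0.81 against 0.02 for all genes. Nr4a1, an orphan nuclear receptor induced by glucagon, ran from 0.777 to 3.2 CPM in the controls (median 1.76) and from 24.9 to 45.6 CPM in the knockdown (median 38.1). Its change was 4.23 ± 0.21 (adjusted p = 1.05e-19), and the nearest libraries of the 2 groups were still several-fold apart. Nr4a3 rose by 2.78 ± 0.38 from a control median of 0.18 CPM. Ppargc1a, the coactivator of gluconeogenic genes known as PGC-1 alpha, rose from a median of 10.5 CPM to 39.3 CPM (1.76 ± 0.17). Per1, a clock gene with a known cAMP response, was at 0.78 ± 0.36 and did not pass (edgeR, adjusted p = 0.0641), and its groups overlapped widely. It passed with limma-voom (adjusted p = 0.0275), with the replicate number as a block (0.0257), and without control replicate 4 (0.0291) or 9 (0.021). Lpin1, which codes for a phosphatidate phosphatase, fell by 1.51 on the log2 scale and was 1 of the 2 members that fell.

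CREB binds the cAMP response element TGACGTCA, or its shorter form TGACG, which reads CGTCA on the other strand. These letters were sought in the RefSeq promoter windows (GRCm38.p6), which run from 250 bases before to 50 after each annotated start and were held for 10236 of the genes tested (79.7%). The full element reads the same on both strands, and every full element also holds the shorter form. It was in 3.47% of these genes, in 3.67% of those that rose and in 3.39% of those that fell. Among genes that rose at least 2-fold it was in 19 of 378 (5.03%), and among those that fell as much in 11 of 558 (1.97%). These shares are descriptions of letters in short windows, not of binding. The 6 promoters shown are those of the largest rises with the full element, among genes whose mean log2 CPM reached 1. The naming rule left out 1 chromosome. Stretches of these 6 promoters follow, with the element in capitals, 5′ to 3′ on the strand of the gene:
Meg3, chr12:109540889-109540995, plus strand: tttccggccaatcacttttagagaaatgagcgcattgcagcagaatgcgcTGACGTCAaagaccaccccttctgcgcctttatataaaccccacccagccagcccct
Tspyl4, chr10:34297338-34297420, plus strand: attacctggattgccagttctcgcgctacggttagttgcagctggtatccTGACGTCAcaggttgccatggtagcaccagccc
Wsb1, chr11:79254696-79254783, minus strand: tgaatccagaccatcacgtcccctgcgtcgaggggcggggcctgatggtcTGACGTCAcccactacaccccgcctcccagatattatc
Ift57, chr16:49699082-49699189, plus strand: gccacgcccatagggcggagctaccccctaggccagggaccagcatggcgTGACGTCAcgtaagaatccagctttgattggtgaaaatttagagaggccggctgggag
Dusp8, chr7:142095334-142095441, minus strand: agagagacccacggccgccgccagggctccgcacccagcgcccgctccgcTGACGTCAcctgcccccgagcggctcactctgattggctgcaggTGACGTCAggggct
Slc25a25, chr2:32424159-32424266, minus strand: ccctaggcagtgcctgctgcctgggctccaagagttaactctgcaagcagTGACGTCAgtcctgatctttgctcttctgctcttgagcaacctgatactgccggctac

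The Dusp8 stretch holds 2 full elements and the other 5 hold 1 each. Slc25a25, a mitochondrial carrier for ATP and magnesium, rose from a median of 105 CPM (35.7 to 167) to 352 CPM (278 to 432), a change of 1.69 ± 0.15. Wsb1, part of a ubiquitin ligase, rose from 16.6 to 65.8 CPM (1.97 ± 0.19), again without overlap. The changes of Tspyl4 (2.05 ± 0.26), Ift57 (1.79 ± 0.27) and Dusp8 (1.75 ± 0.44) were at medians under 10 CPM, and the groups overlapped for Tspyl4 and Dusp8.

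The promoters of Nr4a1, Nr4a3 and Pck1 hold the shorter form but not the full element. The shorter form in either direction was found in 34.8% of all genes with a window, in 37.3% of those that rose and in 32.5% of those that fell. Among genes that rose at least 2-fold it was in 29.4%, below the share of all genes, and among those that fell as much in 23.8%. The 3 windows printed here were chosen after their values were seen. The windows of Igfbp1 (3.04), Tat (2.53), Got1 (2.17), Irs2 (2.15) and G6pc (1.53), which also rose, hold neither form. The shorter form is in capitals:
Nr4a1, chr15:101266596-101266840, plus strand: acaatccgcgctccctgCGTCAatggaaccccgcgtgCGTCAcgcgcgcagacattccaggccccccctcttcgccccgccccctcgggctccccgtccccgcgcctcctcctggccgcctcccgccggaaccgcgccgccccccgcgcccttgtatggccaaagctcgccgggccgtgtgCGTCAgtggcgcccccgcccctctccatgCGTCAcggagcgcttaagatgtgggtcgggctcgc
Nr4a3, chr4:48045055-48045192, plus strand: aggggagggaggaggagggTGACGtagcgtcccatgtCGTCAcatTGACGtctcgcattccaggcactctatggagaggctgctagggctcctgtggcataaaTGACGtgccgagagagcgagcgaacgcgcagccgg
Pck1, chr2:173152953-173153022, plus strand: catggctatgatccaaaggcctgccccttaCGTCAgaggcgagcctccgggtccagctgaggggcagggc

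Genes for the committing and the final step of glucose output rose. Pck1, the cytosolic PEPCK that commits oxaloacetate to gluconeogenesis, ran from 723 to 1880 CPM in the controls (median 1090) and from 5830 to 6970 CPM in the knockdown (median 6690). The change was 2.55 ± 0.19 (adjusted p = 1.31e-14), and the lowest knockdown library was well above the highest control. G6pc, the catalytic subunit of glucose-6-phosphatase, rose from a median of 236 CPM to 633 CPM (1.53 ± 0.25). Its groups touched, since the highest control (297 CPM) was above the lowest knockdown library (284 CPM). The list as a whole did not move one way: of 21 gluconeogenic genes tested, 8 rose and 6 fell, with a median of 0.04. Pyruvate carboxylase (Pcx) fell by 0.81, the glucose-6-phosphate transporter Slc37a4 by 1.12 and the glycerol-3-phosphate dehydrogenase Gpd1 by 0.88, all on the log2 scale and without overlap.

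Most genes of glucose uptake and use fell. Of 20 in the list of glucose uptake, glycolysis and glycogen, 14 fell (70%) and 2 rose (10%). Liver pyruvate kinase (Pklr), the last step of glycolysis and itself a known PKA substrate, ran from 241 to 438 CPM in the controls (median 322) and from 31.5 to 111 CPM in the knockdown (median 49.7), a change of -2.45 ± 0.23. The glucose transporter Slc2a2 fell from 311 to 101 CPM (-1.68 ± 0.13). Both were lower in all 10 knockdown libraries than in any control. Ppp1r3c, which targets protein phosphatase to glycogen, rose by 1.13 ± 0.28 with overlap.

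Amino acid catabolism rose in many of its members. Of 58 genes tested, 29 rose (50%) and 13 fell (22.4%), beside 29.3% and 26.9% of all genes. Acmsd, which sends tryptophan breakdown away from NAD synthesis, ran from 7.25 to 16.1 CPM in the controls (median 8.76) and from 104 to 183 CPM in the knockdown (median 134). The change was 3.77 ± 0.17 (adjusted p = 9.02e-21). Tyrosine aminotransferase (Tat) rose from a median of 557 CPM to 3200 CPM (2.53 ± 0.13), and cystathionine gamma-lyase (Cth) from 267 to 1480 CPM (2.45 ± 0.11). Cytosolic aspartate aminotransferase (Got1) went from 114 to 206 CPM (median 156) in the controls to 608 to 858 CPM (median 727) in the knockdown, a change of 2.17 ± 0.098. Liver glutaminase (Gls2) rose by 2.04 ± 0.1, ornithine aminotransferase (Oat) by 1.38 ± 0.21 and serine dehydratase (Sds) by 1.27 ± 0.2. For all 7 the groups did not overlap. The falls were led by betaine-homocysteine methyltransferase (Bhmt, -1.4 ± 0.19), Pcbd1 of pterin recycling (-1.13 ± 0.085) and Gcsh of the glycine cleavage system (-0.96 ± 0.066).

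The urea cycle and amino acid uptake moved with them. Of 10 urea cycle genes tested, 6 rose and 2 fell. Carbamoyl-phosphate synthase (Cps1), the entry of ammonia, rose from a median of 2100 CPM (1220 to 3740) to 6180 CPM (5610 to 7850), a change of 1.39 ± 0.14. Argininosuccinate lyase (Asl) rose by 1.27 ± 0.091, the ornithine carrier Slc25a15 by 1.19 ± 0.082 and arginase (Arg1) by 0.77 ± 0.082. Glutamine synthetase (Glul), which clears ammonia in hepatocytes around the central vein, went the other way. It fell from a median of 1730 CPM (1170 to 2030) to 259 CPM (88 to 319), a change of -2.89 ± 0.23. Among 24 amino acid transporters, 12 rose and 4 fell. Slc7a2, a carrier of cationic amino acids, rose from 511 to 2370 CPM (2.21 ± 0.12), Slc1a5 of glutamine uptake by 2.27 ± 0.22 and the aromatic amino acid carrier Slc16a10 by 1.62 ± 0.13. The mitochondrial carrier Slc25a47 fell by 1.13 on the log2 scale.

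**Figure D2:**
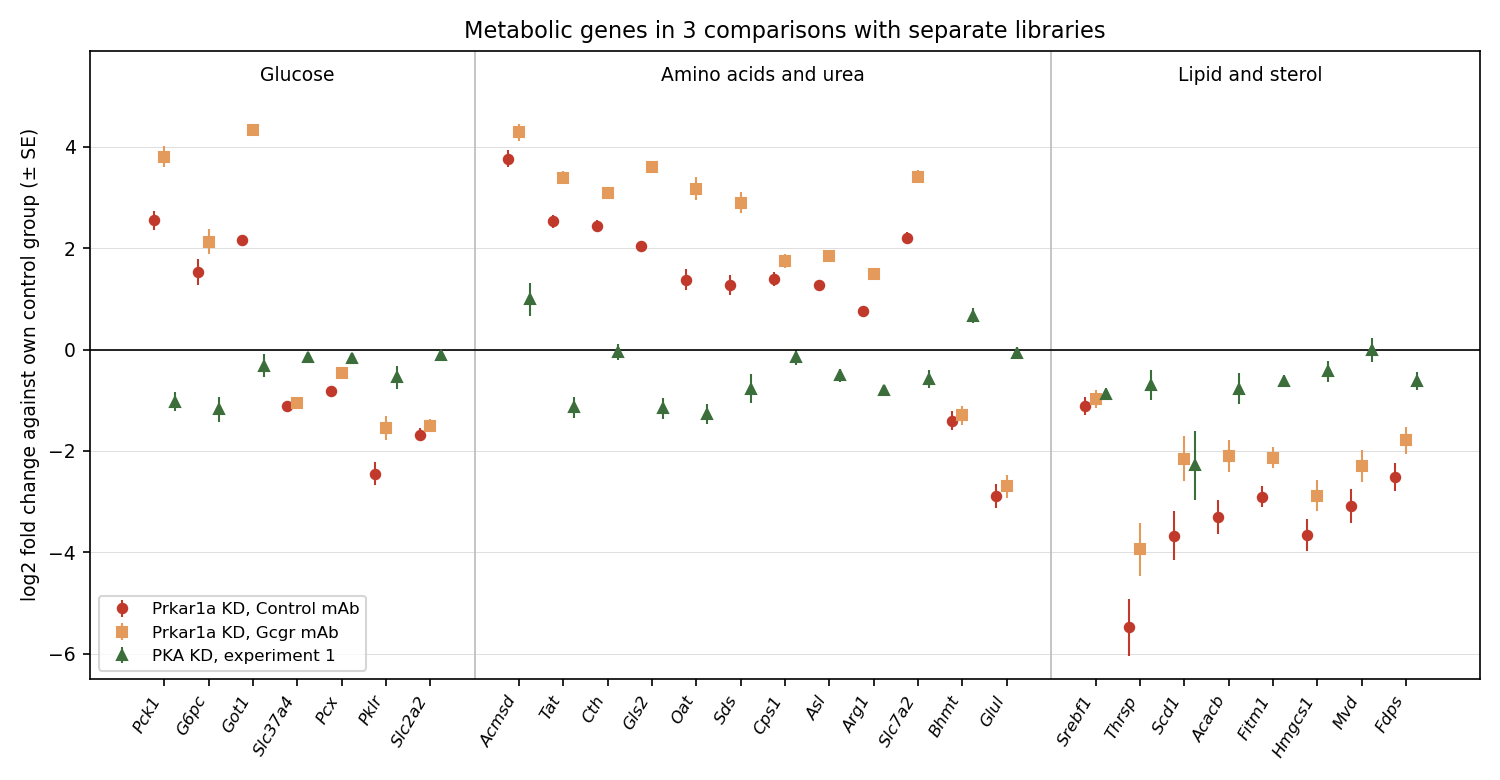
Log2 fold change ± SE of metabolic genes in Prkar1a KD against Control AAV with the control antibody (red circles) and with the receptor antibody (orange squares), and in PKA KD against Control of experiment 1 (green triangles), each from 10 against 10 libraries. Tat (2.53 and 3.39 with Prkar1a KD) lies below 0 with PKA KD (-1.14), as do Pck1, Gls2 and Oat, while Acmsd is above 0 and Scd1 and Srebf1 are below 0 in all 3.

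Most genes of fat synthesis fell. Of 25 genes of lipogenesis and desaturation, 18 fell (72%) and none rose. Thrsp, a small nuclear protein that follows lipogenic activity, ran from 158 to 699 CPM in the controls (median 289) and from 1.99 to 14.4 CPM in the knockdown (median 6.76), a change of -5.48 ± 0.56. The desaturase Scd1 fell from a median of 10800 CPM (4480 to 20800) to 705 CPM (246 to 2090), a change of -3.67 ± 0.48. Acetyl-CoA carboxylase 2 (Acacb) fell by 3.3 on the log2 scale and Srebf1, which encodes the insulin-driven regulator of these genes, by 1.11. None of these 4 overlapped between the groups.

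Lipid droplet coat and lipolysis genes fell with them, 14 of 16 tested (87.5%). Cidea, which promotes droplet fusion, was present in every control (3.43 to 52.3 CPM, median 39.5) and had 3 counts in all 10 knockdown libraries together, 8 of which were at 0. The controls held 5451 counts, a ratio of summed CPM of 1830 with a 95% counting interval of 626 to 8880 that leaves out the spread between libraries. Cidec fell by 5.06 on the log2 scale with slight overlap, since the lowest control (4.79 CPM) lay under the highest knockdown library (4.96 CPM). Fitm1, a factor of droplet formation, fell by 2.9 without overlap. The 1 rise was Plin5 (0.36 ± 0.11), a coat protein that tethers droplets to mitochondria.

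Sterol synthesis had the highest share of members changed one way among the 30 pathway lists: 25 of 26 genes fell (96.2%) and none rose, with a median of -1.27. Hmgcs1, which makes the substrate of HMG-CoA reductase, ran from 337 to 799 CPM in the controls (median 597) and from 23 to 78.4 CPM in the knockdown (median 41.6), a change of -3.66 ± 0.31. Mevalonate decarboxylase (Mvd) fell by 3.09 and farnesyl diphosphate synthase (Fdps) by 2.52 on the log2 scale. These 3 did not overlap.

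Genes of fatty acid oxidation and ketogenesis went both ways. Of 34 tested, 11 rose and 17 fell (50%). The peroxisomal thiolase gene Acaa1b (-1.71 ± 0.16) fell without overlap, whereas the thioesterase Acot1 rose by 1.68 ± 0.19. Fgf21, a hepatokine of fasting, was at -0.6 ± 0.46 and did not pass (adjusted p = 0.28). In bile acid metabolism 12 of 20 genes fell and 2 rose. Cyp7a1, the rate-limiting enzyme of bile acid synthesis, had medians of 84.5 and 93.4 CPM and a change of -0.05 ± 0.25 (adjusted p = 0.873). Its alternative-pathway relative Cyp7b1 rose by 1.29 ± 0.3, and the uptake carrier Slco1a1 fell by 4.09 on the log2 scale, both with overlap.

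Secreted proteins were split, with 10 of 28 hepatokine genes up and 10 down. Follistatin (Fst), which binds activins, ran from 1.22 to 4.74 CPM in the controls (median 3.19) and from 37.1 to 72.9 CPM in the knockdown (median 58.5), a change of 4.25 ± 0.26. Kiss1 encodes kisspeptin, which liver is known to release after glucagon and which acts on islet beta cells. It ran from 0.0817 to 0.511 CPM in the controls (median 0.319) and from 2.66 to 4.05 CPM in the knockdown (median 3.22). The change of 3.38 ± 0.22 (adjusted p = 5.27e-16) was at a low level but in all 10 libraries. Igfbp1, an insulin-repressed binding protein, rose from a median of 12.4 CPM to 85.8 CPM (3.04 ± 0.39). Vaspin (Serpina12) fell by 4.32 and the activin E subunit Inhbe by 2.24 on the log2 scale. Both insulin receptor substrates rose, Irs1 by 1.57 ± 0.12 and Irs2 by 2.15 ± 0.24, without overlap, within an insulin and FOXO list of which 5 of 19 rose and 4 fell.

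Drug metabolism genes mostly fell, 23 of 38 (60.5%), with 10 up. Cyp3a11, the main mouse CYP3A, went from 390 to 1430 CPM (median 856) in the controls to 5.48 to 84.7 CPM (median 28.7), a change of -4.76 ± 0.54. Cyp2e1 fell from a median of 6880 CPM to 1710 CPM (-2.0 ± 0.17). Cyp2b10 was low in the controls (median 0.646 CPM) and had 2 counts in all knockdown libraries against 110 in the controls, a ratio of 55.4 with a 95% counting interval of 15 to 463. Cyp2a4, which is female-biased and close in sequence to other Cyp2a genes, rose from 10.7 to 333 CPM (4.68 ± 0.77) with overlap. Gstp1 rose without overlap, from 627 to 2680 CPM (2.05 ± 0.17).

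Of 26 zonation genes, 10 rose and 11 fell. The periportal Pck1, Gls2, Cps1 and Sds given above rose. Of the pericentral genes, Glul and Cyp2e1 fell, whereas Oat rose. Acute phase genes were 15 down and 9 up of 29. Orm1 fell from a median of 491 CPM to 52.4 CPM (-3.04 ± 0.39), and its near copy Orm3, for which reads may be shared, had 2 counts in all knockdown libraries against 1058. Hemopexin (Hpx) rose by 0.91 ± 0.13. In the growth hormone and Mup list 10 of 21 fell and 4 rose, and no member of it separated the groups. Its summed level was 10900 to 20400 CPM in the controls (median 13300) and 10300 to 24700 CPM in the knockdown (median 17500). Mup19, which this list leaves out, did separate the groups and is given below.

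Interferon-stimulated genes rose almost without exception. Of 35 tested, 32 rose (91.4%) and none fell, with a median of 1.18. Rsad2 (viperin) ran from 10.1 to 28 CPM in the controls (median 19.4) and from 50.1 to 260 CPM in the knockdown (median 117), a change of 2.74 ± 0.32. Ifit1 rose by 2.26 ± 0.28 and Mx2 by 2.17 ± 0.17, both without overlap. The list's summed level was 1000 to 1520 CPM in the controls (median 1130) and 1480 to 3140 CPM in the knockdown (median 2400). Beside it, 2 of 11 Kupffer cell markers (18.2%) and 2 of 8 T and NK cell markers (25%) rose and none fell. Both shares were under the 29.3% of all tested genes that rose. The summed Kupffer cell markers were at 142 to 297 CPM in the controls (median 166) and 131 to 535 CPM in the knockdown (median 225). For T and NK cells the sums were 1.86 to 10.5 CPM (median 4.23) and 4.1 to 9.33 CPM (median 6.54). The median log2 change of the members was 0.39 for Kupffer cells and 0.25 for T and NK cells. No marker of either list was at 0 in all 20 libraries, and their part in the interferon result was not tested.

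Other stress and growth lists moved less. Of 31 cell cycle genes, 17 rose (54.8%) and none fell, but at low levels: Cdk1 went from a median of 1.32 CPM to 3.61 CPM (1.45 ± 0.33) and Plk1 from 0.416 to 1.51 CPM (1.62 ± 0.48), with overlap. The ATF4 list had 7 up and 6 down of 20. Asparagine synthetase (Asns) rose from 0.359 CPM (0.128 to 2.07) to 19.9 CPM (4.75 to 49.2), a change of 5.1 ± 0.56, while the glutathione-degrading Chac1 fell by 2.97 on the log2 scale. Among 19 endoplasmic reticulum chaperones and related genes, 7 fell, led by Herpud1 (-1.08 ± 0.11), and none rose. Of 19 clock genes 10 fell and 4 rose. Bhlhe41 was at -3.41 ± 0.48, Per3 at -2.42 ± 0.53 and Dbp at -2.41 ± 0.62, with Arntl at 1.84 ± 0.46 and Nfil3 at 1.28 ± 0.25. All 5 overlapped between groups, and the hour of tissue collection is not given in the sources used here.

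**Figure D3:**
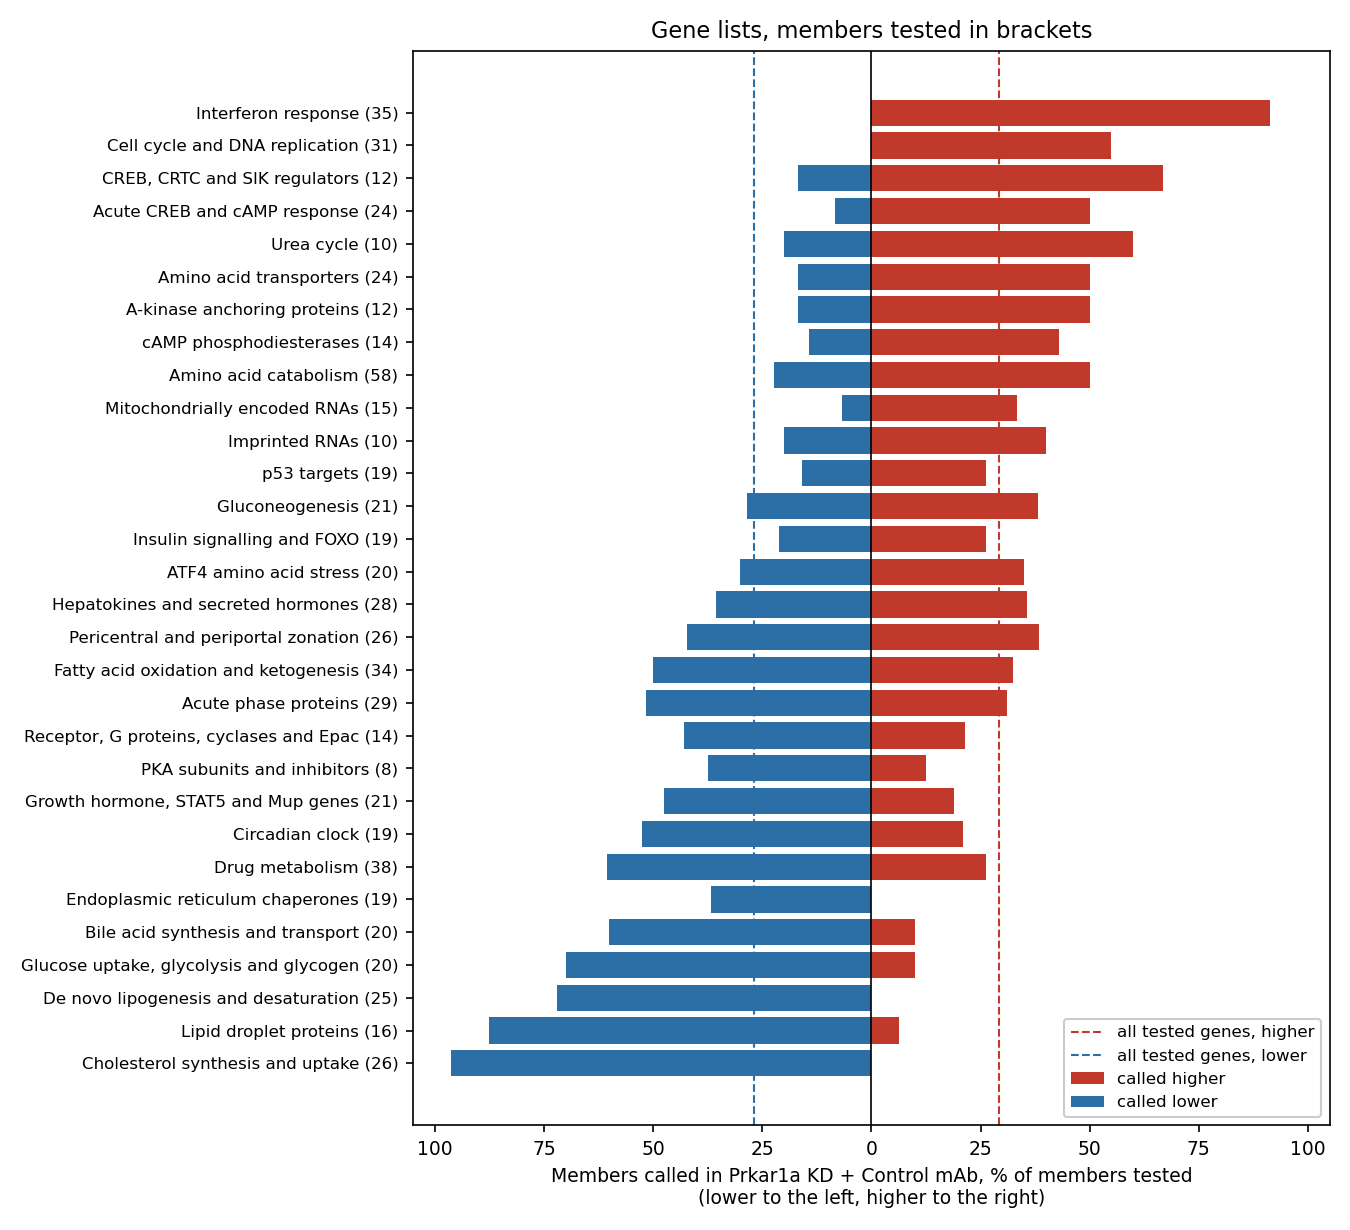
Share of tested members called lower (blue, to the left) and higher (red, to the right) in Prkar1a KD + Control mAb against Control AAV + Control mAb for 30 gene lists, with the shares for all tested genes as dashed lines (26.9% lower, 29.3% higher). Interferon response reaches 91.4% higher and cholesterol synthesis 96.2% lower.

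The maternally expressed RNAs of the Dlk1-Dio3 imprinted region were among the largest rises. Meg3, whose promoter is printed above, ran from 0.267 to 6.7 CPM in the controls (median 1.23) and from 30.8 to 89.3 CPM in the knockdown (median 53.9), a change of 4.88 ± 0.34. Its neighbour Rian rose from a median of 0.34 CPM to 23.1 CPM (5.68 ± 0.27). The third, Mirg, had 187 counts in the knockdown and 2 in the controls, a ratio of 92.8 with a 95% counting interval of 25.3 to 772. None of the 3 overlapped, and across the imprinted list 4 of 10 members rose and 2 fell.

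The other largest rises, taken by size among genes whose mean log2 CPM reached 1, came from genes almost silent in control liver. Pcdh20, a protocadherin, had 6 counts in all controls and 2578 in the knockdown (3.82 to 40.3 CPM, median 13.5), a ratio of 427 with a 95% counting interval of 196 to 1160. Renin (Ren1) had 3 counts against 745, a ratio of 247 (84 to 1200), and the collagen Col22a1 6 counts against 693, a ratio of 115 (52.4 to 314). Tuba8, an alpha tubulin, rose from 0.956 CPM to 54.5 CPM (5.52 ± 0.25), the transcription cofactor Jazf1 from 0.393 to 12.3 CPM (4.84 ± 0.23) and the leptin receptor Lepr from 2.16 to 46.5 CPM (4.34 ± 0.33). In these 6 genes every knockdown library was above every control.

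The largest falls beside Cidea and Orm3 included adipsin (Cfd), with 847 counts in the controls and 6 in the knockdown, and the nicotinic receptor subunit Chrna4, with 816 and 7. Rarres1 fell from a median of 29.7 CPM to 0.277 CPM (-6.28 ± 0.35). Serpina4-ps1 had 973 counts in the controls and 4 in the knockdown. Mup19 and other Mup genes are near-identical copies, so their single values (37.3 to 557 CPM and 0 to 2.99 CPM for Mup19) are uncertain: the Mup genes together took a median of 1.15% of counts in the controls and 1.58% in the knockdown.

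Ranked by p instead of size, with the same limits on level and separation, the leading genes included enzymes and regulators. Such a rank favours genes with little spread between libraries for their change. After Prkar1a came fumarase (Fh1), at 149 to 200 CPM in the controls (median 157) and 613 to 759 CPM in the knockdown (median 716), a change of 2.08 ± 0.067 (adjusted p = 3.73e-26). Egln3, an oxygen-sensing prolyl hydroxylase, rose from a median of 15 CPM (14.1 to 17.2) to 211 CPM (145 to 286), a change of 3.85 ± 0.14. Hip1r of endocytosis (2.45 ± 0.1), the mitochondrial NAD carrier Slc25a51 (1.69 ± 0.077), Gtdc1 (2.08 ± 0.095) and Tnrc6c of miRNA silencing (1.25 ± 0.058) rose without overlap. Got1, Acmsd and Cth, given above, complete the 10.

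Markers of other cells changed in some lists. Among hepatocyte markers 6 of 8 fell, with Alb at -1.44 ± 0.12, transthyretin (Ttr) at -1.76 ± 0.13 and Apoa1 at -1.87 ± 0.11, while the hepatocyte regulator Hnf4a rose by 0.77 ± 0.066. All 4 erythroid markers tested fell, and their sum went from 814 CPM (414 to 1150) to 160 CPM (49.6 to 459). Hba-a1, for instance, was at -2.43 ± 0.39. Of 12 stellate cell markers, 4 fell (33.3%) and none rose, with Col1a1 at -1.73 ± 0.37 and Col3a1 at -1.38 ± 0.3. In endothelial markers 2 of 10 fell (20%), and no B cell marker of 5 passed. The stellate and endothelial shares lay close to the 26.9% of all tested genes that fell, and no marker of either list separated the groups. Mitochondrial rRNA had a median of 0.581% of counts in the controls and 1.37% in the knockdown, although the libraries were made from purified mRNA. The mitochondrially encoded RNAs as a list did not rise: 5 of 15 rose (33.3%) and 1 fell, with a median of -0.03. Their summed level had a median of 183000 CPM in the controls and 163000 CPM in the knockdown, with overlap. How far these shifts enter the gene groups above was not tested.

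The same knockdown was measured in separate libraries, from mice that received the receptor antibody, 10 Prkar1a KD + Gcgr mAb against 10 Control AAV + Gcgr mAb libraries. There 53.1% of genes passed, 26.5% up and 26.6% down. Of the 3761 genes that rose with the control antibody, 94.2% had the same sign and 71.2% also rose with the receptor antibody, which is 78.7% of the rises there. Of the 3462 that fell, 93.9% had the same sign and 72.2% also fell, or 73.2% of the falls there. Over all tested genes, called or not, 81.1% had the same sign. Opposite calls were made for 12 and 15 genes. Across the 12847 genes, which are not independent replicates and share 1 fit, Pearson's r of the log2 changes was 0.87. Prkar1a itself fell by 1.74 on the log2 scale there. Control AAV + Gcgr mAb replicate 2 stood apart from its group, at -18.75 on the first component, where the other 9 lay between -48.55 and -42.49. It also had the group's highest summed stellate (1050 CPM) and Kupffer cell (605 CPM) markers. Without it 3438 genes rose and 3443 fell in this comparison, beside 3403 and 3416 with it, and r was 0.88.

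The interaction term tested whether the knockdown effect differed between the antibodies, and 4.08% of genes passed: for 352 (2.74%) the effect was more positive with the receptor antibody and for 172 (1.34%) more negative. Without Control AAV + Gcgr mAb replicate 2 these were 368 and 162, and without Prkar1a KD + Control mAb replicate 5 the more negative ones were 111. Got1 was the clearest. Its knockdown effect was 4.34 ± 0.11 with the receptor antibody and 2.17 ± 0.098 with the control antibody, a difference of 2.17 ± 0.14 (adjusted p = 4.46e-15), or 2.13 ± 0.13 without the library that stood apart. The levels show where the difference lay: the median was 156 CPM in Control AAV + Control mAb and 33.9 CPM in Control AAV + Gcgr mAb, but 727 and 710 CPM in the 2 knockdown groups. Gls2 (280, 93.8, 1150 and 1190 CPM, in the same order) and Pck1 (1090, 443, 6690 and 6640 CPM) had the same form.

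Mmd2, a membrane protein of the PAQR family, had the largest difference (5.11 ± 0.38), with medians of 7.43, 0.157, 86.4 and 82.1 CPM. For the steroidogenic Cyp17a1 they were 43.6, 3.53, 319 and 266 CPM, a difference of 3.77 ± 0.39, and for Tmem266 the difference was 3.27 ± 0.43. The other 2 of the 5 largest were Gprc5b (3.61 ± 0.76), whose medians were 5.77, 0.695, 4.39 and 3.8 CPM, and Eno1b (3.39 ± 0.96). Eno1b rests on 1 control library at 89.5 CPM, where the control median was 1.49 CPM, and without it the knockdown change turned from -1.96 to 0.64. Among gene lists, 19 of 58 amino acid catabolism genes and 8 of 21 gluconeogenic genes had a more positive effect with the receptor antibody and none a more negative one. Kiss1, a member of neither list, also had a more positive effect (2.09 ± 0.4). It was near the limit of detection in Control AAV + Gcgr mAb, at 0.223 CPM or less. Interferon genes differed the other way, with 8 of 35 more negative: their knockdown median was 0.55 with the receptor antibody (20 up, 1 down) beside 1.18 with the control antibody. Without Control AAV + Gcgr mAb replicate 2 the counts were 18 of 58 and 7 of 21 more positive and 7 of 35 more negative.

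Markers of other cells moved beside this interferon difference. Of 11 Kupffer cell markers, 2 rose and none fell with the control antibody, whereas none rose and 6 fell with the receptor antibody, or 3 without replicate 2. Their summed level with the receptor antibody was 157 to 605 CPM in the controls (median 228) and 126 to 354 CPM in the knockdown (median 182). There 8 of 10 endothelial and 7 of 12 stellate markers also fell, or 8 and 5 without replicate 2, where 1 stellate marker rose. Of all tested genes, 29.3% rose with the control antibody and 26.6% fell with the receptor antibody. No Kupffer or stellate marker and 1 endothelial marker passed the interaction test, and the part of these cells in the interferon difference was not tested.

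Within the control vector, the receptor antibody changed 8.19% of genes, 2.92% up and 5.27% down, in a comparison that shares its control libraries with the knockdown comparison. There Got1 was at -2.22 ± 0.099, Mmd2 at -5.04 ± 0.32 and Pck1 at -1.27 ± 0.18. Between the 2 knockdown groups the antibody changed no gene past the threshold (0.0%) by edgeR, and 846 had an unadjusted p under 0.05. DESeq2 and limma-voom called 0 genes there too.

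**Figure D4:**
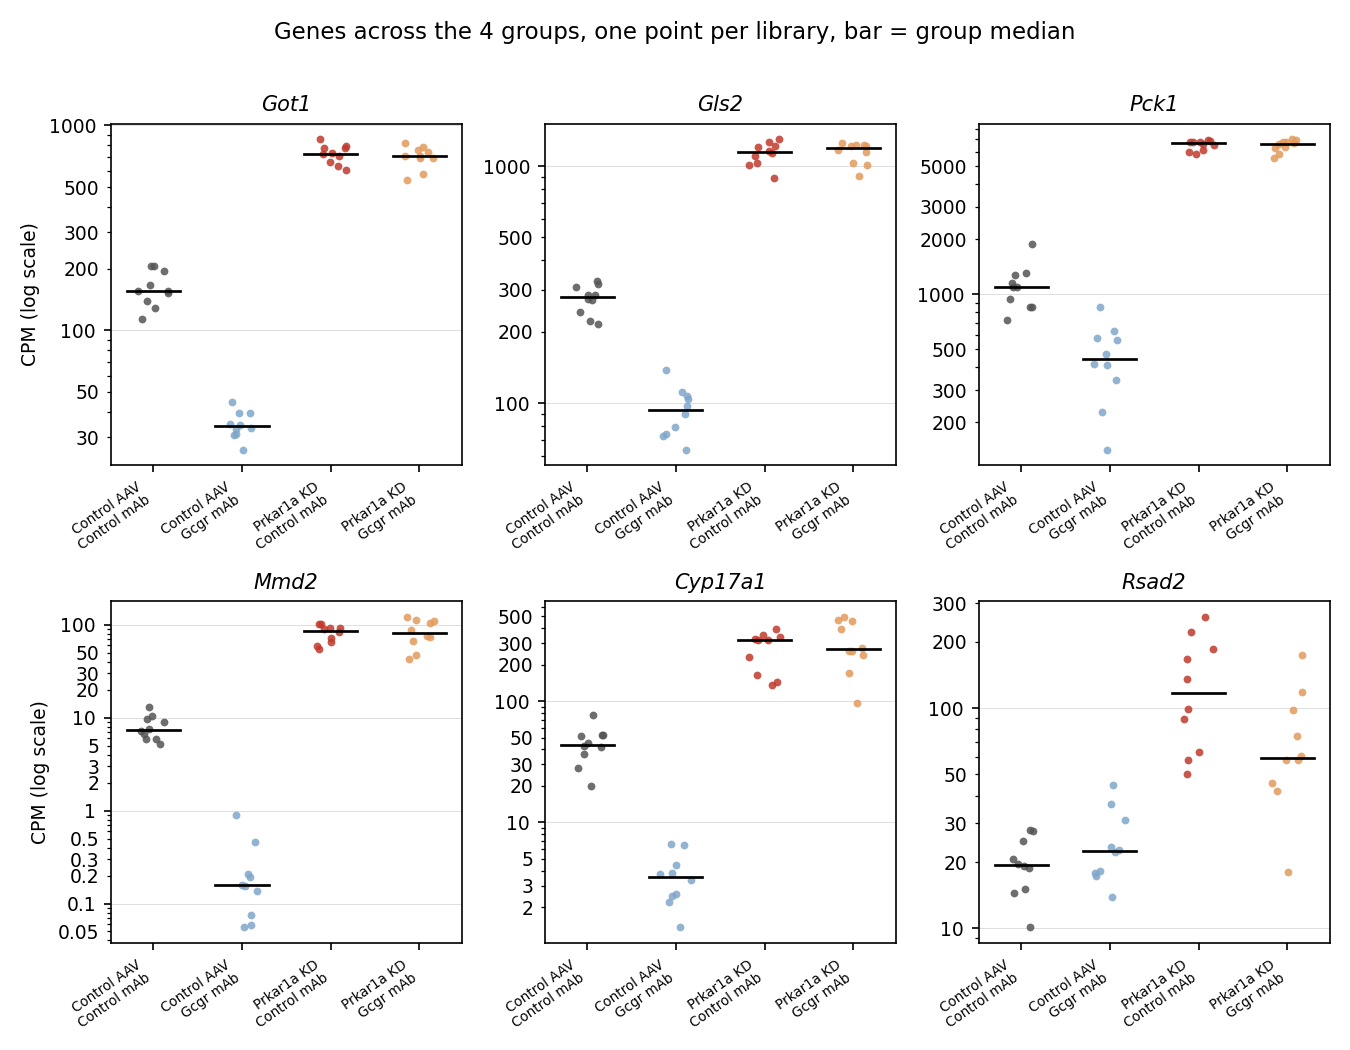
CPM on a log axis in each library of the 4 groups of the second experiment, 10 per group, with the group median as a bar. Got1, Gls2, Pck1, Mmd2 and Cyp17a1 are lower with the receptor antibody in control-vector livers and at similar medians in both knockdown groups. Rsad2 has knockdown medians of 117 and 59.4 CPM with overlapping libraries. It did not pass the interaction test (edgeR, -1.15 ± 0.43, adjusted p = 0.12) or the test between the knockdown groups.

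In the first experiment the catalytic subunits were knocked down. There Prkaca went from a median of 95.7 CPM to 9.44 CPM (-3.06 ± 0.13) and Prkacb from 40.4 to 8.94 CPM (-2.06 ± 0.086), while Prkar1a was at -0.28 ± 0.037. Of 13574 genes tested, 32.4% passed, 17.7% up and 14.8% down. Genes that rose with Prkar1a KD were called up in 16.7% and down in 16.3% of cases, and those that fell were called down in 19.7% and up in 22.6%. As shares of the PKA KD calls, these are 27.7% and 30.4% (rises) and 34.4% and 35% (falls), counted among genes tested in both. Pearson's r across 12746 genes was 0.03, so over all genes the 2 knockdowns did not mirror each other.

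In amino acid catabolism, where 29 rose and 13 fell with Prkar1a KD, 3 rose and 28 fell with PKA KD. Tat was at 2.53 with Prkar1a KD and -1.14 ± 0.21 with PKA KD, Oat at 1.38 and -1.27 ± 0.19, Gls2 at 2.04 and -1.16 ± 0.21, G6pc at 1.53 and -1.18 ± 0.24, and Pck1 at 2.55 and -1.03 ± 0.19. Of the genes whose printed promoters hold the full element, Slc25a25 (1.69 and -1.55) and Wsb1 (1.97 and -0.82) did the same. Meg3 did not, since it rose in both, and the PKA KD values of Tspyl4, Ift57 and Dusp8 are not reported here.

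Many lipid genes fell in both. Of the lipogenic list 18 of 25 fell with Prkar1a KD and 14 with PKA KD, and of the sterol list 25 and 14 of 26. Srebf1 was at -1.11 and -0.87 ± 0.11, Scd1 at -3.67 and -2.28 ± 0.68, Lpin1 at -1.51 and -1.31 ± 0.23. The imprinted RNAs Meg3 (4.88 and 5.26 ± 0.48) and Rian (5.68 and 4.77 ± 0.51) rose in both. Interferon genes were 32 of 35 up with Prkar1a KD and 17 up and 1 down with PKA KD. Nr4a1 was at 4.23 with Prkar1a KD and -0.33 ± 0.34 with PKA KD (adjusted p = 0.505).

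**Figure D5:**
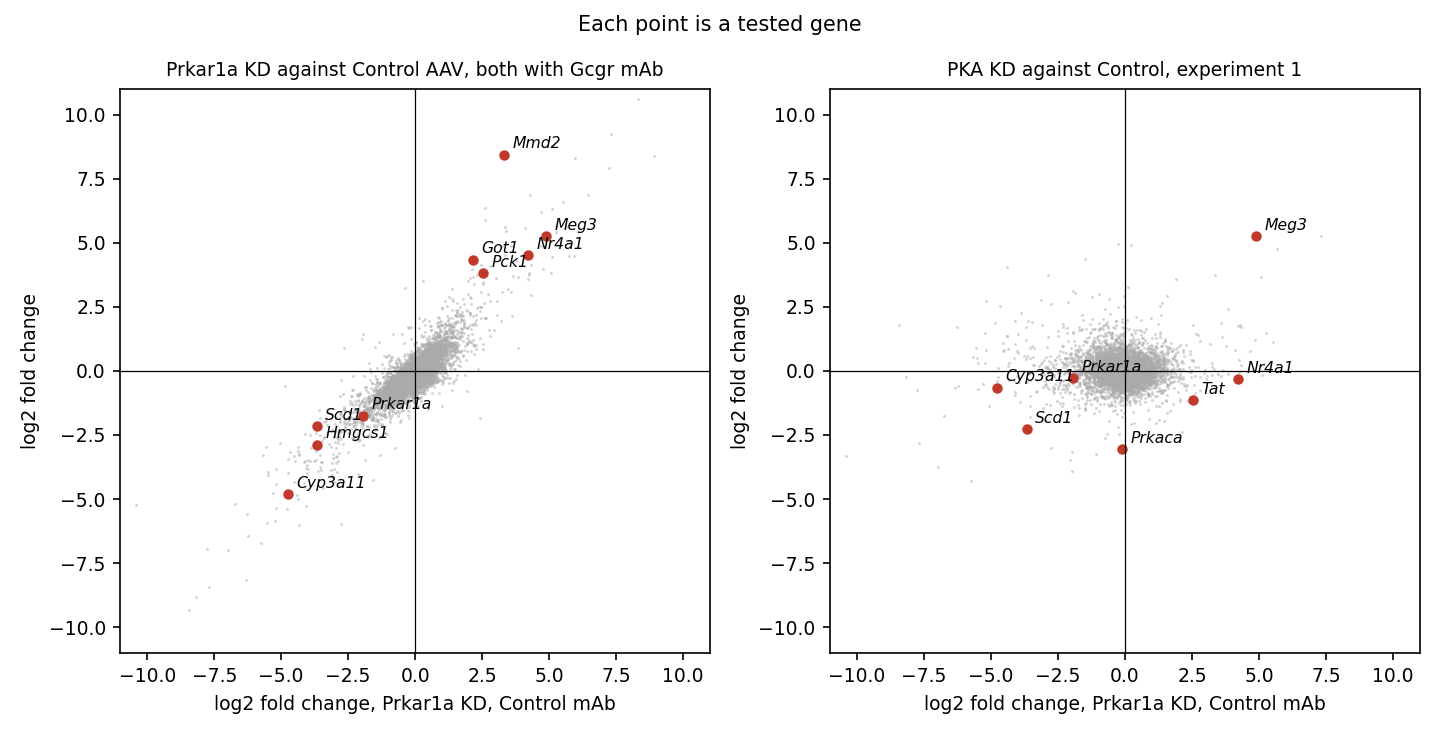
Log2 fold change of every tested gene in Prkar1a KD + Control mAb against Control AAV + Control mAb (x axis) against the same knockdown with the receptor antibody (left, r = 0.87) and PKA KD against Control in experiment 1 (right, r = 0.03), with named genes in red. Tat lies in opposite directions at right, whereas Meg3 and Scd1 lie in the same direction in both panels.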

How the data were processed

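Liver mRNA was sequenced from strand-specific libraries, per the labels' protocols. The authors deposited a table of expected counts per gene for each experiment, and 8.55% of the values in the second were fractional. The counter is not given in the sources used here, and the submitters' processing notes name bcl2fastq 2.17, FastQC and the builds GRCm38 and mm10. All sample columns were mapped by their labels, and 0 columns were left unused. Of 24475 gene IDs, 24375 matched a RefSeq symbol.

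Expected counts were rounded, filtered with edgeR's filterByExpr, scaled by TMM and fitted with its robust quasi-likelihood test (edgeR 4.0.16, R 4.3.3) over all 40 libraries of the second experiment (36 residual degrees of freedom) and, separately, over the first, with Benjamini-Hochberg adjustment over all genes. The procedure was also run on simulated counts in which few genes changed, as many up as down, with 1 dispersion for all genes. That setting differs from these data, where 56.2% of genes passed, so it cannot show how the test behaves here. Alternatives were RLE scaling, no filter, DESeq2 1.42.0, limma-voom (limma 3.58.1), a replicate block, the 2 groups only and leaving out each library of the groups compared, which for comparisons other than that of Prkar1a KD with the control antibody was added after seeing the data. Named genes were cAMP pathway members, a fixed set of metabolic genes, the 10 largest rises and falls and the 10 lowest p-values among genes whose mean log2 CPM reached 1, each list's leading 3 rises and falls, the 5 largest interactions and 6 promoters. Some genes that this rule names are not reported here. The members and lists were chosen with earlier results of these data known. Ratios of low counts carry intervals for counting error only.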

Additional observations from a re-analysis of the deposited data

Results flagged for a closer look

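Among 286 sets of 10 libraries (143 named genes in 2 groups), 19 had 1 library set apart from the other 9 by a gap above Dixon's 95% critical value, 13 in Control AAV + Control mAb and 6 in Prkar1a KD + Control mAb. Chance alone sets apart about 1 in 20 groups. In Control AAV + Control mAb, replicate 3 stood apart for Mirg (highest, at 0.119 CPM beside a median of 0 CPM). In Control AAV + Control mAb, replicate 4 stood apart for Pde10a (highest, at 1.2 CPM beside a median of 0.332 CPM) and Tmem266 (lowest, at 0.063 CPM beside a median of 0.631 CPM). In Control AAV + Control mAb, replicate 5 stood apart for Ift57 (lowest, at 0.179 CPM beside a median of 0.7 CPM). In Control AAV + Control mAb, replicate 9 stood apart for Pde1a (highest, at 4.72 CPM beside a median of 2.81 CPM), Fgf21 (lowest, at 1.04 CPM beside a median of 7.23 CPM) and Slc25a25 (lowest, at 35.7 CPM beside a median of 105 CPM). In Control AAV + Control mAb, replicate 10 stood apart for Prkar1a (lowest, at 97.7 CPM beside a median of 122 CPM), Gnai3 (lowest, at 60.6 CPM beside a median of 100 CPM), Pde7b (lowest, at 2.68 CPM beside a median of 5.59 CPM), Akap5 (lowest, at 0.608 CPM beside a median of 1.36 CPM), Slc2a2 (lowest, at 184 CPM beside a median of 311 CPM) and Eno1b (highest, at 89.5 CPM beside a median of 1.49 CPM). In Prkar1a KD + Control mAb, replicate 1 stood apart for Mvd (highest, at 5.64 CPM beside a median of 1.99 CPM). In Prkar1a KD + Control mAb, replicate 4 stood apart for Col22a1 (lowest, at 2.16 CPM beside a median of 4.37 CPM) and Cfd (highest, at 0.222 CPM beside a median of 0 CPM). In Prkar1a KD + Control mAb, replicate 5 stood apart for Eno1b (lowest, at 1.15 CPM beside a median of 2.67 CPM). In Prkar1a KD + Control mAb, replicate 9 stood apart for Srebf1 (lowest, at 36 CPM beside a median of 99.2 CPM) and Fst (lowest, at 37.1 CPM beside a median of 58.5 CPM).

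For 29 named genes the knockdown effect differed between the receptor and the control antibody by the interaction test (edgeR, adjusted p under 0.05). The values are the log2 effect with the receptor antibody minus that with the control antibody. It was more positive for 26. Among genes of glucose, amino acid and urea metabolism these were Pck1 (1.26), Tat (0.86), Sds (1.63), Gls2 (1.57), Got1 (2.17), Oat (1.81), Arg1 (0.73), Fh1 (0.55), Cth (0.64), Gpd1 (0.52), Pcx (0.34), Pcbd1 (0.4), Asl (0.58), Slc25a15 (0.62) and Slc7a2 (1.2). The others were Adcy6 (0.53), Pde4b (1.44), Slc25a51 (0.54), Gtdc1 (0.77), Kiss1 (2.09), Mmd2 (5.11), Cyp17a1 (3.77), Gprc5b (3.61), Eno1b (3.39), Tmem266 (3.27) and Slc25a25 (0.79). It was more negative for Rapgef4 (-0.67), Ifit1 (-1.4) and Mx2 (-0.96).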

How the results depend on the processing

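With other scaling, tools and fits, the genes that rose and fell numbered 3534 and 3631 (RLE scaling), 3824 and 3602 (no filter), 3581 and 3661 (DESeq2), 3845 and 3370 (limma-voom) and 3441 and 3517 (2 groups only). Leaving out 1 library at a time gave 3510 to 3790 rises and 3340 to 3511 falls. With replicate number as a block they were 3778 and 3434. The numbers share no stated source: same-numbered libraries of the 2 groups had a median correlation of -0.025 (-0.135 to 0.159), 2 of 10 pairs were over 0.1, and 1 of 10 libraries correlated best with its own number. The negative interactions, 172 in the report, were 265 with DESeq2, 106 with no filter and 111 to 254 with 1 library left out (chosen after seeing the data). Between the 2 knockdown groups leaving out 1 library gave 0 to 1 rises, the 1 being 4930404H11Rik, named after its value was seen. Without Control AAV + Gcgr mAb replicate 2, 26 of the 29 interactions of named genes still passed. Gpd1 (adjusted p = 0.0571), Pcbd1 (0.0598) and Eno1b (0.0502) did not, and Tuba8 did (1.65, adjusted p = 0.0105, edgeR). Of 492 list counts under other settings, 470 were within 1.5 times.

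The rest, whose cause was not tested, were small counts. With RLE scaling and with DESeq2 alike, members up were 1 for glycolysis and 1 for bile acids, and mitochondrially encoded members down were 2, as with limma-voom. With limma-voom, cell cycle members down were 1, stellate members up 1 and Kupffer members up 1, and with the block cell cycle members down were 1 and Kupffer members up 1. In a fit of 2 groups only, mitochondrially encoded members up were 3 and T and NK members up 1. Without control replicates 2 and 10, chosen after seeing the data, members down were 1 for CREB regulators, 3 for ATF4 and 1 for imprinted RNAs, and T and NK members up were 1. Neutrophil members up were 2 with DESeq2 and limma-voom, and 3 with 2 groups only or without the 2 controls. Of 3859 settings of 143 named genes, 3846 kept the call and, where either fit called the gene, the direction. The exceptions were Akap1, Per1 and Eno1b. Eno1b turned to 0.71 without the 2 controls, 0.59 with DESeq2 and 0.11 with limma-voom, and ranged from -2.1 to 0.64 when 1 library was left out. Per1 passed with limma-voom (0.98), with the block (0.9) and without control replicate 4 (0.94) or 9 (0.99). Genes under about 1 CPM rest on few counts per library.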
